A study of Mus musculus with 6 samples.

Results

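Expression of 10 lipid-transport genes was examined in tumor-associated macrophages (TAMs) of Pdcd1f/f and Pdcd1f/fLysMcre mice. The genes were Abca9, its chromosome 11 relatives Abca6, Abca8b and Abca5, the single-locus transporters Abca1, Abca2, Abca3 and Abca7, the half-transporter Abcg1, and Nr1h3, which encodes LXRα. They were 10 of the 55421 genes in the count table, and all 10 were among the 14469 genes tested after the filter on low counts. The members were selected on the same contrast that is reported here, because Abca9 fell strongly in it, so their values are a description of these libraries and support nothing on their own.

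ATP-binding cassette (ABC) transporters use ATP to move substrates across membranes, and many of the A and G subfamilies move cholesterol, phospholipids or other lipids. In macrophages Abca1 passes cholesterol and phospholipid to lipid-poor apolipoprotein A-I, and Abcg1 passes cholesterol to high-density lipoprotein. Both are switched on by the liver X receptors (LXRs), which are bound by oxysterols, pair with a retinoid X receptor and act at direct repeats of a hexamer in target genes, Nr1h3 itself included in some species. Abca5, Abca6, Abca8a, Abca8b and Abca9 form a separate group of ABCA genes that lie side by side and whose substrates are less well known. In human monocytes ABCA9 has been described as rising during differentiation into macrophages and falling with cholesterol loading.

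The TAMs were live CD45+CD11b+F4/80+Ly6G− cells sorted from fibrosarcomas at day 15, with 3 libraries for each genotype. Both genotypes carried the floxed Pdcd1 alleles, which encode PD-1. Pdcd1f/fLysMcre mice also carried Cre at the lysozyme M locus, which is active in macrophages, monocytes and neutrophils and not in TAMs alone, and Pdcd1f/f mice had no Cre and served as controls. Neither the labels nor the study's methods state whether each library came from 1 mouse or from pooled mice, so the p-values measure the spread between these samples.

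Library totals lay between 41833823 and 51417209 counts. Pdcd1, the targeted gene, gave raw counts of 10, 12 and 15 in controls and of 7, 16 and 11 in Pdcd1f/fLysMcre TAMs, too few at the level of the whole gene to check the labels. Lyz2, which carries the Cre insertion, fell from a mean normalized count of 216860 to 427, and this separated the genotypes as labelled. Cre and the loss of Lyz2 transcripts thus came with the same libraries as the intended loss of Pdcd1. Their parts in a difference between the genotypes, that of Abca9 included, cannot be told apart. All 8 macrophage markers examined (Adgre1, Itgam, Csf1r, Cd68, Fcgr1, Mertk, C1qa and Ptprc) were expressed in every library. Relative to the mean of their own genotype, Pdcd1f/f replicate 1 and Pdcd1f/fLysMcre replicate 2 had lower values for genes of high GC content. Spearman's rho between GC content and this deviation across 11480 genes was −0.721 and −0.648, against 0.171 to 0.663 in the others. This is a description across genes that do not count as replicates. Deviations within a genotype balance out, so a low library raises the rho of its partners. The summed normalized counts of 4 Y-linked genes were 1545 to 1914 in Pdcd1f/f and 6267 to 7233 in Pdcd1f/fLysMcre libraries, so Y-linked transcripts were present in both genotypes, at unequal levels. The study's methods state that males and females were used equally across its experiments and do not give the sex behind each library, so the part of sex in a difference between these genotypes cannot be told apart.

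Abca9 (ENSMUSG00000041797, minus strand, GRCm38 chr11:110100749-110168196) lies between Abca8a and Abca6 in the ABCA cluster. Its coding sequence and that of Abca6 hold a run of 62 identical bases, the longest it shares with any cluster gene. The run is shown because a read of 42 bases that falls wholly inside it matches both genes, and only its mate could tell them apart. It lies at chr11:110110318-110110379 in Abca9 and chr11:110184062-110184123 in Abca6 (GRCm38, minus strand, transcripts of GENCODE M21). Capitals mark the shared run, lower case marks 30 coding bases on either side, and the 122-base windows differ at 16 positions.
Abca9: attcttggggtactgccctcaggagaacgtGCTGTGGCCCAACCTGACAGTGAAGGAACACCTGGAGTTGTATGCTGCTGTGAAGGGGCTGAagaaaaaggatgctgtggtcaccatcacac
Abca6: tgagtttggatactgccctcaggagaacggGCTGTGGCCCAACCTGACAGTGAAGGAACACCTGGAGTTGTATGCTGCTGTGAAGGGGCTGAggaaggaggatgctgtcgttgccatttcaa

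Abca5 has no such run, sharing at most 17 bases with Abca9, and the start regions of these neighbours are unlike each other. Bases upstream of both the RefSeq start and the outermost GENCODE start are shown, which for Abca9 leaves out the stretch nearest the RefSeq start, because Abca9 and Abca5 lie in the same cluster and differ in what follows (RefSeq, GRCm38.p6, gene strand). The windows are chr11:110168197-110168403 for Abca9 and chr11:110337717-110337966 for Abca5, and capitals mark each CG pair.
Abca9 upstream: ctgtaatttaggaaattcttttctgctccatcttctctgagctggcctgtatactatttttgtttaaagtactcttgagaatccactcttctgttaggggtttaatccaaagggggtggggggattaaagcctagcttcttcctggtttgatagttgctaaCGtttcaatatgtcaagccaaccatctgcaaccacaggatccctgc
Abca5 upstream: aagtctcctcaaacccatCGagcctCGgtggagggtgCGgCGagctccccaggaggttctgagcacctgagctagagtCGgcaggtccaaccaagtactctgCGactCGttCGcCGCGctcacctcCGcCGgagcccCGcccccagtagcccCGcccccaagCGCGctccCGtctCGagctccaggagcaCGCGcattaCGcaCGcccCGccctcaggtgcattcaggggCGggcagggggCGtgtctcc

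In its full window of 300 bases, from 250 before to 50 after the start, Abca9 held 2 CG pairs at a GC content of 45.3%, and 14.1% of 32851 mouse windows held fewer. The Abca5 window held 40 CG pairs at 72.3%, with fewer in 96.1% of windows. The median window held 7. These are properties of the reference sequence, and methylation was not measured.

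Abca9 transcripts were abundant in control TAMs and scarce relative to them in Pdcd1f/fLysMcre TAMs. The normalized counts (raw counts divided by a DESeq2 size factor per library) were 1685, 1651 and 1534 in Pdcd1f/f replicates 1, 2 and 3. In Pdcd1f/fLysMcre replicates 1, 2 and 3 they were 643, 546 and 578. The highest Pdcd1f/fLysMcre library stood far below the lowest control library, and the spread within each genotype was small beside this gap (1624 ± 79.0 against 589 ± 49.6, SD, n = 3 each). The log2 fold change of Pdcd1f/fLysMcre over Pdcd1f/f was −1.46 with an SE of 0.09 and a 95% interval of −1.65 to −1.27 (edgeR quasi-likelihood test, Benjamini-Hochberg adjusted p of 9.0e-06, given as a description because the gene was chosen by this contrast). The Pdcd1f/fLysMcre level was thus 0.363 of the control level. In sorted bulk cells, fewer cells that express a gene and less RNA per cell cannot be told apart.

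**Figure D1:**
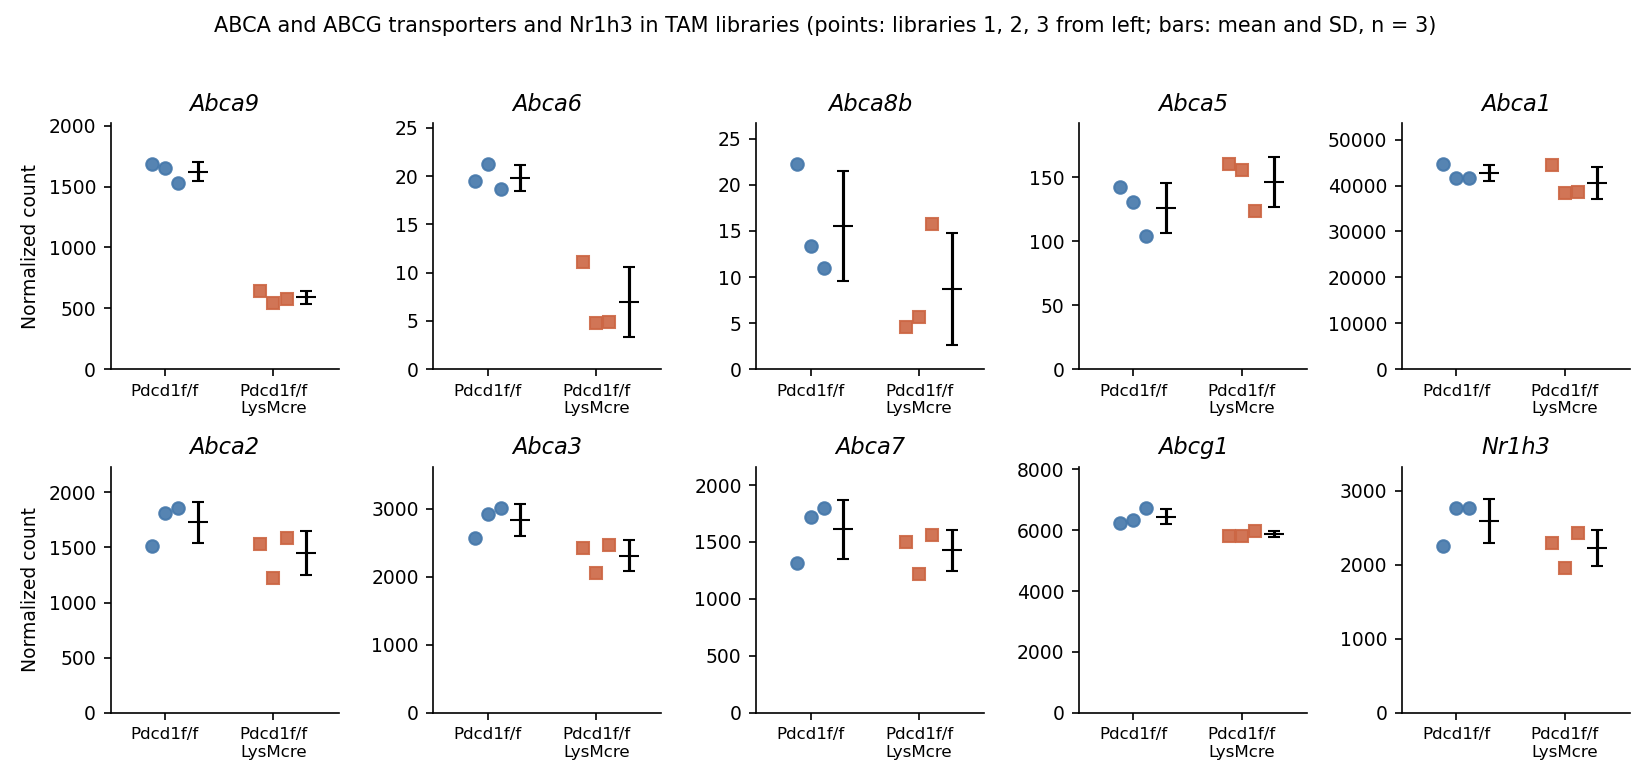
Normalized counts of the 10 genes in each TAM library, 1 panel a gene with its own y axis from 0, circles for Pdcd1f/f and squares for Pdcd1f/fLysMcre, and the mean and SD of 3 libraries beside the points. Abca9 falls from between 1534 and 1685 to between 546 and 643, Abca6 is lower on raw counts of 21 or fewer, and in the other 8 panels the genotypes overlap or lie close together.

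Of the 10 genes, Abca9 was the 1 called lower and none was called higher, a share to be set beside 5.43% of all genes tested (3.01% lower and 2.42% higher). The libraries of the genotypes did not overlap for Abca9, Abca6, Abca3 and Abcg1, all lower in Pdcd1f/fLysMcre, and no member was higher without overlap. Across all genes tested, 13.1% were lower and 14.1% higher without overlap. Because the contrast chose the members, nothing is read from these shares. The median log2 fold change was −0.23 over the 10 genes, 9 of which were below 0, and −0.0026 over all genes tested.

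**Figure D2:**
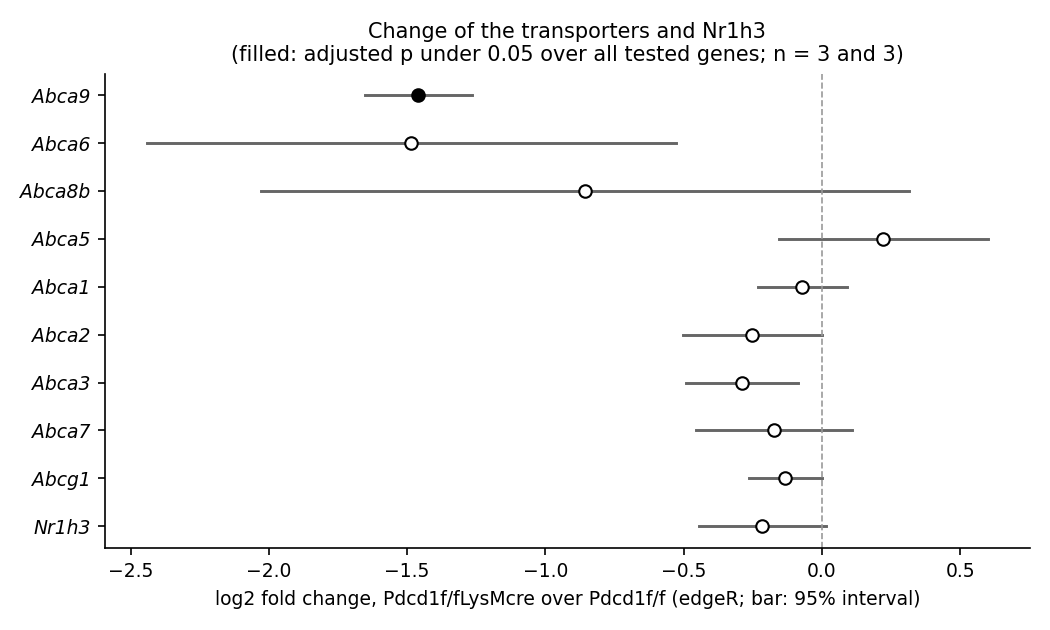
Log2 fold change of each of the 10 genes, Pdcd1f/fLysMcre over Pdcd1f/f, with its 95% interval from edgeR (3 libraries each); a filled point marks an adjusted p under 0.05. Abca9 is the filled point at −1.46, Abca6 has a like estimate of −1.49 with an interval from −2.44 to −0.53, and the other 8 estimates lie between −0.86 and 0.22.

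Abca6 (ENSMUSG00000044749, chr11:110176820-110251776), the next gene upstream of Abca9 on the same strand, was close to the limit of detection. Its raw counts were 21, 19 and 17 in Pdcd1f/f and 12, 5 and 5 in Pdcd1f/fLysMcre libraries. Each Pdcd1f/fLysMcre library was below each control library. The log2 fold change was −1.49 with an SE of 0.43, close to that of Abca9 and far less precise, and it did not pass the threshold (edgeR adjusted p = 0.0717, interval −2.44 to −0.53). Of the 42-base words in Abca9 transcripts, 0.261% also occur in Abca6. Taken read by read, without the mates, that share of the Abca9 counts comes to between 3.66 and 4.74 counts in control and 1.5 to 1.81 in Pdcd1f/fLysMcre libraries, fewer than the counts given to Abca6. How the authors treated reads that map to both genes is not given in the sources used here.

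Abca8b (ENSMUSG00000020620, chr11:109932190-109995845), described in other tissues as a lipid and organic anion transporter, was as scarce as Abca6. The counts were 24, 12 and 10 in Pdcd1f/f and 5, 6 and 16 in Pdcd1f/fLysMcre libraries, so that the genotypes overlapped. Its log2 fold change was −0.86 (SE 0.53, edgeR adjusted p = 0.350), and its interval ran from −2.03 to 0.32. It lay between −0.50 (without Pdcd1f/f replicate 1) and −1.59 (without Pdcd1f/fLysMcre replicate 3) when 1 library was left out. Without both Pdcd1f/f replicate 1 and Pdcd1f/fLysMcre replicate 2, a setting chosen after the values were seen, it was −0.27 (edgeR adjusted p = 0.796). Abca8a, which lies between Abca8b and Abca9, had 5 counts or fewer in every library and was not tested. Of the 42-base words in Abca8b, 3.07% occur in another gene, in part in Abca8a, so its few counts are uncertain.

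Abca5 (ENSMUSG00000018800, chr11:110269369-110337716), a transporter of lysosomes and late endosomes, lies at the far end of the cluster. Its normalized counts were 142, 131 and 104 in Pdcd1f/f and 160, 155 and 124 in Pdcd1f/fLysMcre libraries. These ranges overlapped, with the lowest value in a control library and the highest in a Pdcd1f/fLysMcre library. The estimate was 0.22 on the log2 scale (SE 0.17, edgeR adjusted p = 0.454, interval −0.16 to 0.60), so a fall of the size seen for Abca9 lies outside its interval. GC and length offsets gave 0.10, as did leaving out Pdcd1f/f replicate 3.

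Ratios taken within a library set Abca9 against its neighbours. Abca9 over Abca5 was 11.9, 12.6 and 14.7 in Pdcd1f/f and 4.02, 3.52 and 4.67 in Pdcd1f/fLysMcre libraries, without overlap. Abca9 over Abca6 was 86.5, 77.8 and 82.4 in Pdcd1f/f and 57.9, 115 and 118 in Pdcd1f/fLysMcre libraries. This second ratio lay on both sides of the control values. Of the summed counts of the 5 cluster genes, Abca9 made up 91.0% ± 0.964 in control and 78.1% ± 1.90 with Cre (SD over 3 libraries of each genotype), and it remained the most abundant gene of the cluster in both.

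Within 1 Mb of Abca9 the annotation places 30 other genes, of which 11 had no count in any library and 15 were tested. Beside the cluster, 2 of these passed the threshold, in opposite directions, and 5.43% of all genes tested passed it. Arsg, which encodes the lysosomal enzyme arylsulfatase G, had normalized counts of 236, 232 and 263 in Pdcd1f/f and 106, 134 and 131 in Pdcd1f/fLysMcre libraries. Without overlap between genotypes, it fell by 0.98 on the log2 scale (SE 0.14, edgeR adjusted p = 0.00322). Fam20a, a pseudokinase that assists the secretory-pathway kinase Fam20c, had 65.8, 68.2 and 69.0 normalized counts in Pdcd1f/f and 151, 141 and 126 in Pdcd1f/fLysMcre libraries. It rose in each Pdcd1f/fLysMcre library, by 1.04 on the log2 scale (SE 0.16, edgeR adjusted p = 0.00427). Prkar1a, the regulatory subunit of protein kinase A that lies next to Fam20a, had an estimate of 0.05 (interval −0.09 to 0.18), which turned to −0.03 with the GC and length offsets, and Map2k6, beyond Abca5, one of 0.09 (interval −0.17 to 0.34), or 0.02 without Pdcd1f/f replicate 3 and 0.20 without Pdcd1f/f replicate 1. The median over the 15 genes was 0.05.

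**Figure D3:**
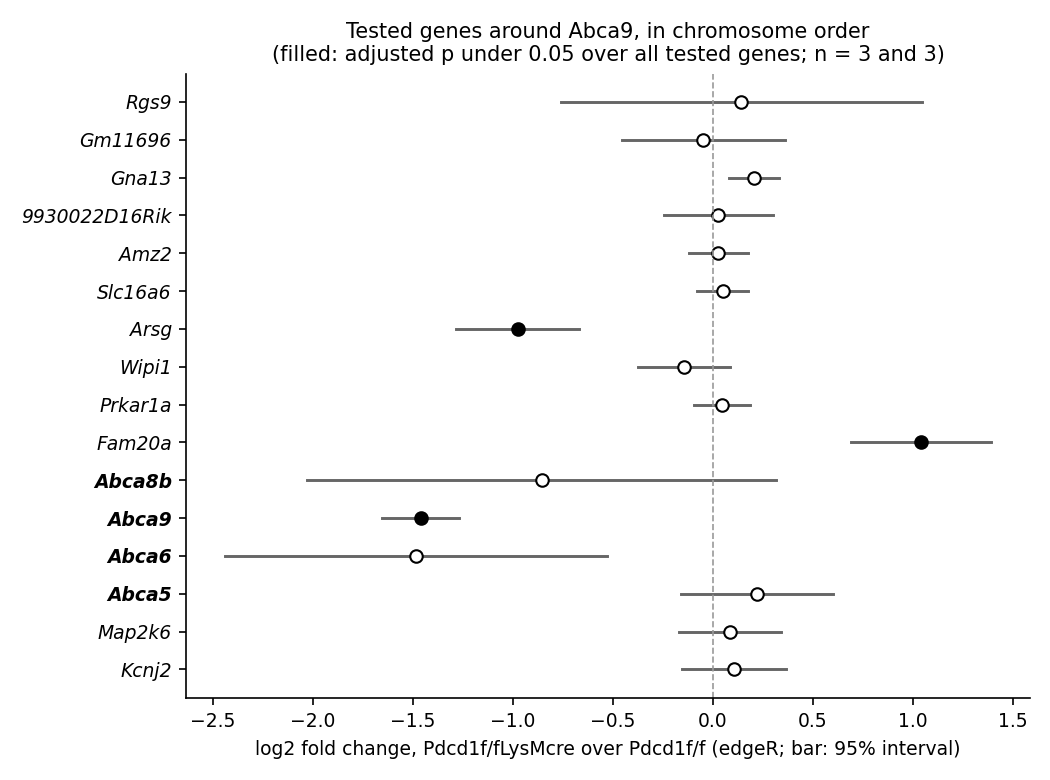
Log2 fold change, with its 95% interval from edgeR, of Abca9 and the 15 other tested genes within 1 Mb of it, listed from top to bottom in the order of their start positions on chromosome 11 and not to scale; members are in bold and filled points have an adjusted p under 0.05. Abca9 and Arsg lie at −1.46 and −0.98 and Fam20a at 1.04. Abca6 and Abca8b, the nearest tested genes on either side of Abca9, are open at −1.49 and −0.86 with wide intervals. Most of the other genes lie near 0.

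Abca1 and Abcg1, the efflux pumps driven by LXR, differed far less between the genotypes than Abca9. Abca1 (ENSMUSG00000015243, chr4:53030787-53159895) had normalized counts of 44672, 41623 and 41663 in Pdcd1f/f and 44523, 38344 and 38696 in Pdcd1f/fLysMcre libraries. The genotypes overlapped, since Pdcd1f/fLysMcre replicate 1 lay among the controls. A log2 fold change of −0.07 was estimated (SE 0.07, edgeR adjusted p = 0.577), with an interval of −0.23 to 0.09 that leaves room for only a small change in either direction. Over the alternative analyses the estimate lay between −0.14 and −0.0045.

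Upstream of Abca1 a single DR4-like element was found. The search was for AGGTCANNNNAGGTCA, 2 hexamers spaced by 4 bases (DR4), on both strands of the windows of 300 bases. With up to 2 mismatches in the 12 hexamer bases no window of 9 matched genes (Abca1, Abca2, Abca3, Abca5, Abca7, Abca8a, Abca8b, Abca9 and Nr1h3) held a match, against 3.02% of all windows. With up to 3 mismatches, a limit added after the first search was seen, Abca1 alone of these held one, from base −67 to base −52 relative to its start, against 21.9% of all windows. The region chr4:53159896-53160145 is shown because it holds this match (RefSeq, GRCm38.p6, gene strand), with the hexamers, read on the opposite strand, in capitals.
Abca1 upstream: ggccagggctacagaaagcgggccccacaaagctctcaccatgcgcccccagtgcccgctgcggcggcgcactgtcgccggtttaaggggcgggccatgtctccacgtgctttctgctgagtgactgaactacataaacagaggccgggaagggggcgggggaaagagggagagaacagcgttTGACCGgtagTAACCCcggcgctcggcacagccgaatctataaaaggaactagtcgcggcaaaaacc

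Such a match is a description of the letters only, since factor binding was not measured. Abca6 and Abcg1 were not matched to a window.

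Abcg1 (ENSMUSG00000024030, chr17:31057675-31117988) had 6249, 6348 and 6732 normalized counts in Pdcd1f/f and 5804, 5823 and 5975 in Pdcd1f/fLysMcre libraries. Every Pdcd1f/fLysMcre library was below every control library, by a small margin. The log2 fold change was −0.13 (SE 0.06), which did not pass the threshold (edgeR adjusted p = 0.203, interval −0.26 to −0.0011), and GC and length offsets gave −0.08 (adjusted p = 0.210). Per exon length, Abca1 exceeded Abcg1 by 4.67 ± 0.341 times in control and 4.87 ± 0.465 times with Cre (SD over 3 libraries of each genotype), so that their balance did not differ beyond its spread.

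Nr1h3 (ENSMUSG00000002108, chr2:91184061-91202834), the receptor gene, had 2250, 2761 and 2768 normalized counts in Pdcd1f/f and 2294, 1960 and 2433 in Pdcd1f/fLysMcre libraries. In each genotype the lowest value came from the library with low values for GC-rich genes, and the genotypes overlapped. The log2 fold change was −0.22 (SE 0.10, edgeR adjusted p = 0.233, interval −0.45 to 0.02). Offsets fitted per library on GC content and length gave −0.08 (adjusted p = 0.318). In the fit with no offsets, the estimate was −0.32 without Pdcd1f/f replicate 1, where it passed the threshold, and −0.13 without Pdcd1f/fLysMcre replicate 2.

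Abca2, Abca3 and Abca7 made up the rest of the set. Abca2 (ENSMUSG00000026944, chr2:25428703-25448540), which acts in lysosomal sterol and sphingolipid handling, had 1511, 1809 and 1859 normalized counts in Pdcd1f/f and 1533, 1220 and 1586 in Pdcd1f/fLysMcre libraries. Control replicate 1 fell within the range of the Pdcd1f/fLysMcre libraries. Its log2 fold change was −0.25 (SE 0.11, edgeR adjusted p = 0.206, interval −0.50 to −0.00052). It was −0.15 with GC and length offsets (adjusted p = 0.0828) and −0.14 without Pdcd1f/fLysMcre replicate 2.

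Abca3 (ENSMUSG00000024130, chr17:24351950-24410201), known for loading phospholipid into the lamellar bodies of surfactant-making lung cells, had 2569, 2918 and 3015 normalized counts in Pdcd1f/f and 2421, 2052 and 2467 in Pdcd1f/fLysMcre libraries. The genotypes did not overlap. After Abca6 this was the member nearest to the threshold (log2 fold change −0.29, SE 0.09, edgeR adjusted p = 0.0880, interval −0.49 to −0.09), and it passed in 6 of 13 alternative analyses, among them DESeq2 (adjusted p = 0.0346, with 12.6% of all genes tested called) and offsets for GC content and length (−0.22, adjusted p = 0.00417, with 18.2% called). An antisense transcript, D330041H03Rik, overlaps 914 of its exon bases, with 19 to 30 counts a library.

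Abca7 (ENSMUSG00000035722, chr10:79996494-80015572), a transporter with a part in phospholipid export and phagocytosis, had 1318, 1722 and 1800 normalized counts in Pdcd1f/f and 1499, 1220 and 1562 in Pdcd1f/fLysMcre libraries. The values of the genotypes overlapped. Its log2 fold change of −0.17 (SE 0.13, edgeR adjusted p = 0.432, interval −0.46 to 0.11) moved to −0.02 with offsets for GC content and length, to −0.31 without Pdcd1f/f replicate 1, where it passed the threshold, and to −0.07 without Pdcd1f/fLysMcre replicate 2.

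Of the 5 GC-rich members, 4 shared a pattern across libraries. The transcripts of Abcg1, Abca3, Nr1h3, Abca2 and Abca7 had a GC content of 52.7% to 58.9%, and those of the other 5 members 39.8% to 47.5%. In Abca2, Abca3, Abca7 and Nr1h3 both Pdcd1f/f replicate 1 and Pdcd1f/fLysMcre replicate 2 were the lowest of their genotype. In Abcg1 only Pdcd1f/f replicate 1 was. Pdcd1f/fLysMcre replicate 2 was also the lowest of its genotype in Abca9, Abca6 and Abca1, which are not GC-rich. Leaving out both (2 libraries against 2, chosen after the values were seen) gave −0.24 for Abca2 (adjusted p = 0.0111), −0.28 for Abca3 (0.00156), −0.21 for Abca7 (0.0268), −0.15 for Abcg1 (0.0335) and −0.23 for Nr1h3 (0.00847), all past the threshold in edgeR, in a setting that called 26.2% of all genes tested. Without Pdcd1f/f replicate 1 alone, 4 of these 5 passed, and Abcg1 did not (adjusted p = 0.0752), where 21.6% of all genes tested were called. Against these shares and 5.43% with all libraries, nothing particular to the members is read from their calls. Between the low-GC libraries themselves, 1 a genotype and so with no replicate check, Pdcd1f/fLysMcre was lower in Abca2 (1220 against 1511), Abca3 (2052 against 2569), Abca7 (1220 against 1318), Abcg1 (5823 against 6249) and Nr1h3 (1960 against 2250).

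Levels were compared between genes as FPKM, computed from the raw counts as CPM per kilobase of exon, over exons joined across the transcripts of each gene. In control TAMs the FPKM of Abca1 was highest at 87.7 ± 3.70, followed by Nr1h3 at 22.0 ± 2.5 and Abcg1 at 18.8 ± 0.664 (SD, n = 3 each). The libraries of Nr1h3 and Abcg1 overlapped. A middle tier held Abca3 (6.44 ± 0.522), Abca7 (5.09 ± 0.808), Abca2 (4.40 ± 0.474) and Abca9 (4.30 ± 0.227), in which the libraries of Abca7, Abca2 and Abca9 overlapped. Abca5 (0.234 ± 0.037), Abca6 (0.078 ± 0.0056) and Abca8b (0.045 ± 0.017) were far below.

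In Pdcd1f/fLysMcre TAMs the order of the means was the same, and Abca9 left the middle tier. Its FPKM was 1.54 ± 0.131, with libraries between 1.42 and 1.68, while Abca2, the next gene above it, had 3.65 ± 0.525 and libraries between 3.06 and 4.04. Abca1, at 82.4 ± 6.95, remained the highest, and Nr1h3 (18.7 ± 2.18) and Abcg1 (16.9 ± 0.416) still overlapped. Abca6 (0.027 ± 0.014) and Abca8b (0.025 ± 0.018) could not be separated.

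**Figure D4:**
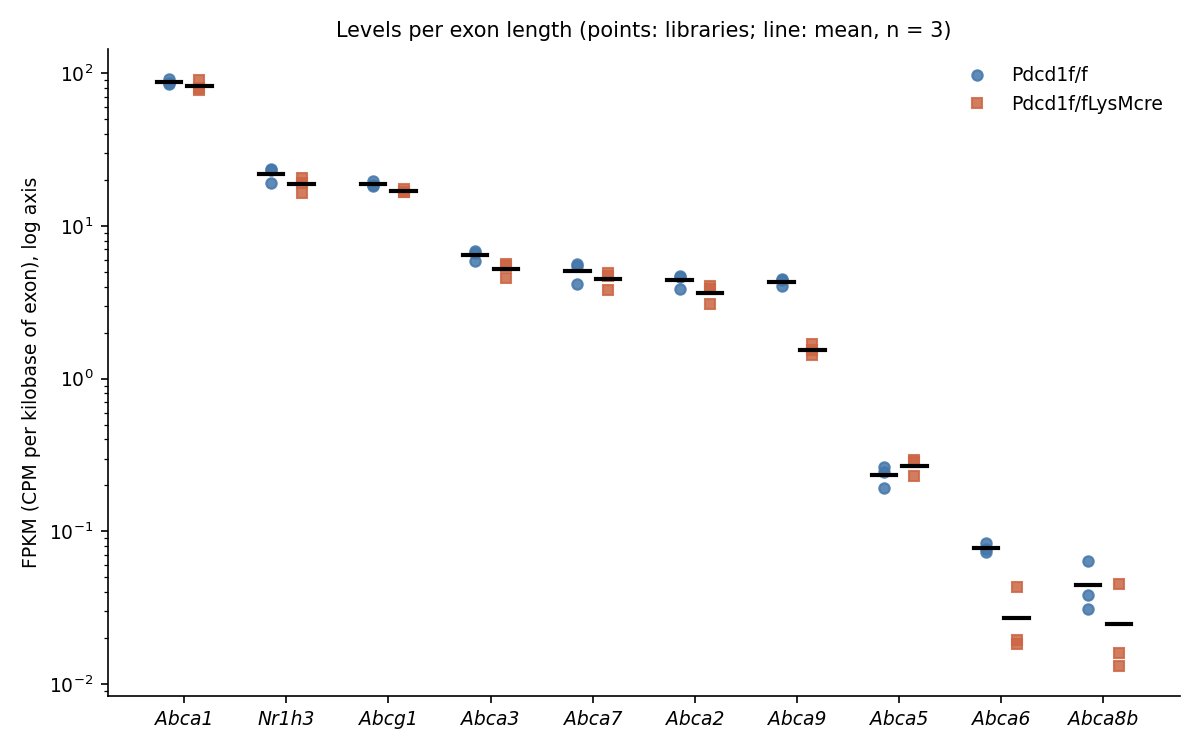
FPKM (CPM per kilobase of exon) of the 10 genes on a log axis, ordered by the control mean, circles for Pdcd1f/f and squares for Pdcd1f/fLysMcre libraries and a line at the mean of 3. Abca9 lies at 4.30 beside Abca2 and Abca7 in control libraries and at 1.54 in Pdcd1f/fLysMcre libraries, and the other abundant genes stay near their control level.

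Other ABCA and ABCG genes were mostly silent. Of 13 further members of these subfamilies, 6 had no count in any library and 3 were tested. Abcg3, a rodent relative of Abcg2, had 5053, 4801 and 4460 normalized counts in Pdcd1f/f and 6044, 6471 and 5802 in Pdcd1f/fLysMcre libraries. All Pdcd1f/fLysMcre libraries were above the controls, and it rose by 0.36 on the log2 scale (SE 0.07, edgeR adjusted p = 0.0169). When 1 library was left out it passed in 2 of 6 analyses. Abcg2 itself had an estimate of −0.14 (interval −0.36 to 0.07) and Abca13 one of 0.28 (interval −0.58 to 1.15). Across the alternatives Abcg2 lay between −0.28 and −0.10. It passed the threshold in 2 of 13, those with GC and length offsets, alone and with the replicate block. The offsets alone called 18.2% of all genes tested. Abca13 passed in no alternative and lay between 0.19 and 0.47 when 1 library was left out.

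The LXR pathway was followed in 18 genes listed as LXR targets of macrophages, a list that includes Abca1, Abcg1 and Nr1h3. Nr1h3 is a target in some species, and whether it is one in these cells was not tested. Of the 16 tested, 3 fell, 1 rose and 12 did not pass the threshold, with 11 estimates below 0 and 5 above (5.43% of all genes tested were called, 3.01% lower and 2.42% higher). The median was −0.13, against −0.0026 over all genes tested. The list was drawn up with results of these data known and is no independent evidence of a direction.

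Apoe, the lipoprotein component secreted by macrophages, was the target with the largest change. Its normalized counts were 119630, 163180 and 179360 in Pdcd1f/f and 77902, 68830 and 89384 in Pdcd1f/fLysMcre libraries. No Pdcd1f/fLysMcre library reached the lowest control, and it fell by 0.97 on the log2 scale (SE 0.14, edgeR adjusted p = 0.00340). Mertk, a receptor for engulfing dead cells, had 6163, 5817 and 5871 against 3892, 3991 and 3786 normalized counts, and fell by 0.61 (SE 0.06, edgeR adjusted p = 0.00036) with no overlap.

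Mylip, a ubiquitin ligase that removes the LDL receptor, had 1158, 1182 and 1327 against 973, 910 and 892 normalized counts. It fell by 0.40 (SE 0.08, edgeR adjusted p = 0.0207). Scd2, a fatty acid desaturase, went the other way, with 4892, 4707 and 5185 against 6058, 6463 and 5946 normalized counts and a rise of 0.32 (SE 0.06, edgeR adjusted p = 0.0179). The genotypes did not overlap for either gene. Across the 6 analyses that left out 1 library each, Apoe and Mertk passed in 6, Scd2 in 3 and Mylip in 1. The targets past the threshold thus did not include the efflux pumps Abca1 and Abcg1.

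**Figure D5:**
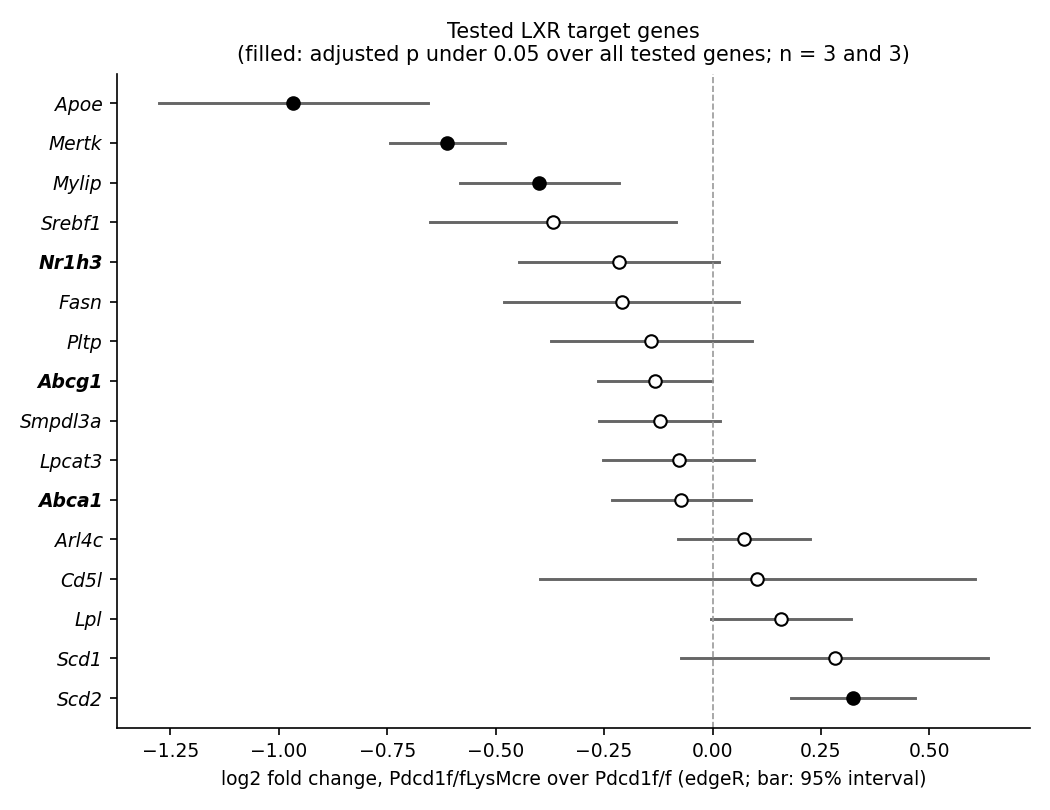
Log2 fold change, with its 95% interval from edgeR, of the 16 tested LXR target genes, sorted by estimate, members in bold and filled points with an adjusted p under 0.05 (3 libraries each). Apoe, Mertk and Mylip are filled below 0 and Scd2 above 0, and Nr1h3, Abcg1 and Abca1 are open at −0.22, −0.13 and −0.07.

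Of 6 genes for LXR partners and for enzymes of oxysterol metabolism, 2 fell and none rose (3.01% of all genes tested were called lower), with a median of −0.31 against −0.0026 over all genes tested. Rxra, which encodes a retinoid X receptor that pairs with LXR, had 1768, 2036 and 2257 against 1510, 1431 and 1595 normalized counts and fell by 0.42 (SE 0.09, edgeR adjusted p = 0.0313). Cyp27a1, which makes an oxysterol from cholesterol, had 593, 660 and 631 against 504, 441 and 459 and fell by 0.42 (SE 0.10, edgeR adjusted p = 0.0311). Both were without overlap, and when 1 library was left out Rxra passed in 2 of 6 analyses and Cyp27a1 in 1. Nr1h2, the gene of LXRβ, had an estimate of −0.29 (interval −0.55 to −0.03, edgeR adjusted p = 0.164) with overlapping libraries. It was −0.11 with GC and length offsets, and it passed in 3 of 13 alternatives, those with no filter on low counts, without Pdcd1f/f replicate 1 (−0.42) and without both low-GC libraries.

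The genes whose levels followed Abca9 most closely across the 6 libraries, out of 11479 compared by log2(normalized count + 1), were Rassf4 (Pearson's r = 0.999), Pcyox1, Gfra4 and Als2cl (each 0.998) and Lyz2 (0.996). This likeness is a description, because the gap between genotypes makes up most of it. Gfra4, a receptor subunit of the GDNF family, had 179, 171 and 160 normalized counts in Pdcd1f/f and 77.7, 74.3 and 72.8 in Pdcd1f/fLysMcre libraries, and Rassf4, a Ras-association domain gene, went from 3845 ± 75.3 to 3025 ± 72.5 (SD, n = 3 each).

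Markers of macrophages and of other cells were read beside Abca9, although the sort on CD45, CD11b, F4/80 and Ly6G should remove most fibrosarcoma cells, endothelial cells, lymphocytes and neutrophils. Of 9 markers of resident-like macrophages 8 were tested, and all 8 (Lyve1, Folr2, Cd163, F13a1, Gas6, Cbr2, Stab1 and Selenop) fell, 6 of them in each of the 6 analyses that left out 1 library and Folr2 and Gas6 in 4. Of all genes tested, 3.01% were called lower. The summed normalized counts of the 9 were 187300 to 198140 in Pdcd1f/f and 118370 to 122070 in Pdcd1f/fLysMcre libraries. Of the 8 markers of all macrophages 4 fell (Adgre1, Csf1r, Mertk and C1qa), with sums of 255350 to 286790 and 221500 to 229290. When 1 library was left out, Mertk passed in 6 of 6 analyses, Adgre1 in 4, C1qa in 3 and Csf1r in 2. The part of these differences in the fall of Abca9 was not tested.

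Fibroblast and fibrosarcoma markers summed to 3094 to 3336 in Pdcd1f/f and 2954 to 3238 in Pdcd1f/fLysMcre libraries, with 1 of 6 tested lower (Col1a2, which passed in 4 of the 6 analyses that left out 1 library), beside 3.01% of all genes tested. Endothelial markers summed to 1962 to 2073 and 1625 to 1711, with 1 of 4 tested lower (Pecam1, which leukocytes also express) and Cdh5 at means of 169 and 168. Sums of 5 dendritic cell markers were 104 to 142 and 197 to 198, of 5 neutrophil markers 1736 to 2226 and 2143 to 2309, of 3 mast cell markers 191 to 203 and 171 to 272, and of 6 T cell markers 585 to 664 and 525 to 632, and none of the genes tested in these lists passed the threshold. Cd4, which some macrophages express, made up nearly all of the T cell sum (means of 611 and 572), with Cd3e, Cd3d, Cd3g and Cd8a at 11 counts or fewer in every library, and Kit nearly all of the mast cell sum (194 and 231). The 3 B cell markers summed to 19.0 or less in every library. None of the 55 markers was at 0 in all libraries, and their part in the change of Abca9 was not tested.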

How the data were processed

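RNA-seq libraries of sorted TAMs were compared between Pdcd1f/f and Pdcd1f/fLysMcre mice (3 each). The authors prepared stranded polyA libraries, removed adapters with cutadapt 2.5, aligned paired-end reads to GRCm38 with STAR 2.7.3a and deposited raw counts per Ensembl gene from featureCounts (Subread 1.6.2). Strand setting and handling of multi-mapped reads are not given in the sources used here. A second deposited table holds the normalized signal of 16552 genes, in which each library's counts are scaled by its DESeq2 size factor (0.895 to 1.08).

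Raw counts were tested with edgeR 4.0.16 (R 4.3.3) by filterByExpr (minimum count 10, minimum total 15), TMM scaling, robust glmQLFit and a two-sided glmQLFTest, with Benjamini-Hochberg adjustment over 14469 genes and a threshold of 0.05. Of these, 786 passed. SEs were taken from the fold change and its F statistic, and 95% intervals from the t quantile of the fit. DESeq2 1.42.0 was an alternative test. Exon lengths, GC content and coding sequences came from GENCODE M21. The 10 genes and all lists were chosen with earlier results of these data known. All 10 were named, and of each list at most 4 genes past the threshold by adjusted p, plus those that the pathway or cluster needed. Of the marker lists of cell types, every gene past the threshold was named.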

Additional observations from a re-analysis of the deposited data

How the results depend on the processing

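The fall of Abca9 passed the threshold in all 13 alternatives, with log2 fold changes of −1.55 to −1.39 (−1.53 to −1.41 when 1 library was left out), and none of the 10 genes changed direction. Of 38 other named genes refitted, 2 changed direction, neither of them past the threshold: Prkar1a (0.05) was at −0.031 with GC and length offsets, −0.028 with the offsets and the replicate block, at −0.0027 without Pdcd1f/f replicate 1 (−0.0027 to 0.071 when 1 library was left out) and at −0.021 without both low-GC libraries, and Cdh5 (−0.0090) was at 0.052 with the offsets, 0.051 with the offsets and the replicate block, 0.0050 without Pdcd1f/f replicate 3 and 0.044 without Pdcd1f/fLysMcre replicate 1 (−0.058 to 0.044 when 1 library was left out). The number of the 10 genes called was 1, and 1 with RLE size factors and with the replicate block, 2 with no filter on low counts and with DESeq2 (Abca9 and Abca3 in both, with no adjusted p for Abca6 and Abca8b in DESeq2), 3 with GC and length offsets, alone or with the replicate block (Abca9, Abca6 and Abca3, with Abca6 at adjusted p = 0.0246 and 0.0328), 1 to 5 when 1 library was left out (5 without Pdcd1f/f replicate 1) and 6 with both low-GC libraries left out. LXR targets called numbered 4, then 7 with the offsets, alone or with the replicate block, 2 to 8 when 1 library was left out, and 11 with both low-GC libraries left out. Over all genes, 786 were called, 782 with RLE, 1951 with no filter, 1533 with DESeq2, 1027 with the replicate block, 2628 with the offsets, 2689 with the offsets and the replicate block, 222 to 3181 when 1 library was left out and 3757 without both low-GC libraries. Among the analyses that left out 1 library, the highest count was without Pdcd1f/f replicate 1, and the lowest (222) without Pdcd1f/fLysMcre replicate 1, with 224 without Pdcd1f/f replicate 2, 354 without Pdcd1f/f replicate 3 and 370 without Pdcd1f/fLysMcre replicate 2. The cause was not tested. The labels do not say whether replicate numbers pair the libraries. Deviations of same-numbered libraries from their genotype means correlated by −0.013, −0.097 and 0.220. With so few libraries, and the low-GC libraries under different replicate numbers, these values cannot decide it. The median over all genes lay between −0.0069 and 0.0083 in every alternative. With 21 or fewer Abca6 counts and 24 or fewer Abca8b counts a library, counting noise limits both genes.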

Other observations

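Transporters of the ABCB to ABCF subfamilies, which pump drugs, peptides, bile salts, acyl-CoA and other substrates or, in ABCE and ABCF, act on ribosomes, were read as a further list. Of 30 listed genes 24 were tested, 2 fell and none rose (edgeR, adjusted over all genes tested, of which 5.43% were called), with 10 estimates above 0, 14 below and a median of −0.07. Abcc3, an efflux pump for conjugated organic anions, had normalized counts of 5196, 6303 and 6372 in Pdcd1f/f and 4373, 3865 and 4394 in Pdcd1f/fLysMcre libraries. It fell by 0.50 on the log2 scale (SE 0.09, edgeR adjusted p = 0.0108), without overlap between genotypes. Abcd4, needed for the release of cobalamin from lysosomes, had 668, 754 and 781 against 540, 505 and 595 normalized counts and fell by 0.42 (SE 0.10, edgeR adjusted p = 0.0371), also without overlap. When 1 library was left out, Abcc3 passed in 3 of 6 analyses and Abcd4 in 2.

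The peptide transporters Tap1 and Tap2, which supply MHC class I, did not pass the threshold, with log2 fold changes of −0.19 (interval −0.39 to 0.01) and −0.20 (interval −0.48 to 0.08). Both passed without Pdcd1f/f replicate 1 (−0.28 and −0.34), where 21.6% of all genes tested were called. They also passed without both low-GC libraries (−0.22 and −0.25), where 26.2% were called. With GC and length offsets they were at −0.07 and −0.06. These genes were named after their values were seen. Abce1, a ribosome recycling factor, had 11998, 10811 and 10559 normalized counts in Pdcd1f/f and 13359, 15249 and 12477 in Pdcd1f/fLysMcre libraries. Its estimate of 0.30 (SE 0.08, interval 0.12 to 0.49) came without overlap between genotypes and missed the threshold (edgeR adjusted p = 0.0639). Abce1 passed in 7 of 13 alternatives, among them both settings just given with their shares. Across these 13 the estimate lay between 0.17 and 0.36.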
